A study of Homo sapiens with 8 samples.

Results

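MYC and its neighbours in band 8q24 of chromosome 8 were followed through CUT&RUN peak lists of HCT-116, a human colorectal carcinoma cell line, with and without SETD3. The genes were MYC, PVT1, POU5F1B, CASC8, CCAT1, NSMCE2 and TRIB1, which are 7 of the 38340 protein-coding and long non-coding RNA genes of the RefSeq annotation used here. Peaks belonged to a gene when they overlapped its annotated span or the 50 kb on either side, and the stretches between POU5F1B and MYC and between MYC and PVT1 were added. Together these windows form 2 blocks on build hg38. The TRIB1 block, with NSMCE2 and TRIB1, runs over chr8:125041860-125488403, and the MYC block, with the other 5 genes, over chr8:127157382-128151256. They cover 1440 kb and held 440 of the 256193 peaks on chromosomes 1 to 22, X and Y in the 8 lists.

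CUT&RUN maps a protein on chromatin by tethering a nuclease to an antibody bound to it and sequencing the DNA that is cut free. The study directed antibodies against BRG1, the ATPase of SWI/SNF chromatin remodelling complexes encoded by SMARCA4, and against Flag-tagged actin. SETD3 is the enzyme that methylates a histidine of actin, and the series asks whether it bears on where BRG1 sits. For each antibody there were 2 libraries of SETD3 knockout cells, KO1 and KO2, and 1 library of control cells labelled SETD3 CT. Each arm also had 1 IgG library of SETD3 CT cells, in which a non-specific antibody measures background. All 8 libraries came from HCT-116 cells, grown without any treatment named in the labels. Whether KO1 and KO2 come from different clones or cultures, and how SETD3 was disrupted, is left unsaid by the labels. The Flag arm IgG library has the word Empty in its title, and its Flag-actin status is likewise unsaid. With 1 control library per antibody the spread between control cultures is unknown. No test between knockout and control cells was run, and each difference describes these libraries.

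MYC encodes a transcription factor that pairs with MAX and drives genes of ribosome production, metabolism and the cell cycle. In colorectal cancer cells its transcription is high and depends on WNT signalling through TCF7L2 and on enhancers scattered over the gene-poor stretches on both sides of the gene. The neighbourhood is known for non-coding RNAs, among them CCAT1 and PVT1, and for frequent copy number gain in tumours, and SWI/SNF complexes are known to work at such distal enhancers.

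The lists were called one library at a time with SEACR, a peak caller that ranks blocks of signal. The antibody lists carry a numeric threshold, which keeps a top fraction of the blocks of a library. The number of peaks thus follows the library as well as the binding, and the lists differed in length. BRG1 had 23784 peaks in KO1 and 32038 in KO2, against 53270 in control cells and 24755 in IgG. Flag-actin had 27249 peaks in KO1 and 35892 in KO2, against 38902 in control cells and 20303 in IgG. Of all BRG1 peaks, 71.4% in KO1 and 60.1% in KO2, against 36.9% in control cells, overlapped a peak of either IgG list. Read depth cannot be read from the lists, and a site outside a list is one that was not called, not one shown to be empty. Counts are therefore given with the whole list beside them, and the strength of a peak is given as its percentile of total signal within its own list, where 100 is the strongest. That percentile also depends on how many IgG sites a list holds. For most BRG1 sites compared between lists, the percentile among peaks outside the IgG list of the arm is added. It is called the outside percentile.

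BRG1 peaks were fewer in knockout than in control cells over the neighbourhood. There were 53 peaks in KO1 and 92 in KO2, against 171 in control cells and 18 in IgG, so both knockout lists lay below the control and above IgG. The ratio of knockout to control was 0.424 ± 0.161 (mean ± SD over the 2 knockout libraries, n = 2), against 0.524 ± 0.110 for the whole lists and 0.507 ± 0.127 for chromosome 8. The spread between KO1 and KO2 was larger than the distance between these ratios. That spread does not compare the neighbourhood with the whole list of the same library. In KO1 the neighbourhood ratio was 0.310, against 0.446 for the whole list. In KO2 it was 0.538, against 0.601, so it was the lower of the 2 in each library. Outside both IgG lists the neighbourhood held 37 peaks in KO1 and 78 in KO2, against 155 in control cells, a ratio of 0.371 ± 0.187, where the whole lists gave 0.291 ± 0.126. As a share of those peaks, the neighbourhood held 0.545% in KO1 and 0.610% in KO2, against 0.461% in control cells. With IgG sites included the shares went the other way, at 0.223% in KO1 and 0.287% in KO2, against 0.321% in control cells. Whether the neighbourhood lay above or below the whole lists thus depended on the IgG sites. Fewer BRG1 peaks in the knockout lists were thus a feature of the whole genome in these files, and the neighbourhood shared it.

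The 2 blocks differed in how far the lower counts depended on list length. The TRIB1 block had 23 peaks in KO1 and 49 in KO2, against 105 in control cells, and the MYC block had 30 and 43, against 66. With each list cut to its 23784 strongest peaks, the TRIB1 block had 23 in KO1 and 34 in KO2, against 58 in control cells, and the MYC block had 30 and 30, against 34. When peaks of either IgG list were removed and each list was cut to its 6792 strongest peaks, an alternative chosen after seeing the data, the TRIB1 block kept 15 peaks in KO1 and 28 in KO2, against 38 in control cells. The MYC block then had 22 in KO1 and 26 in KO2, against 24 in control cells. At equal length the knockout counts were therefore lower in the TRIB1 block, and in the MYC block they were below the control by a few peaks only. With IgG sites removed as well, they were lower in the TRIB1 block and on either side of the control in the MYC block. The difference between the blocks was not tested.

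**Figure D1:**
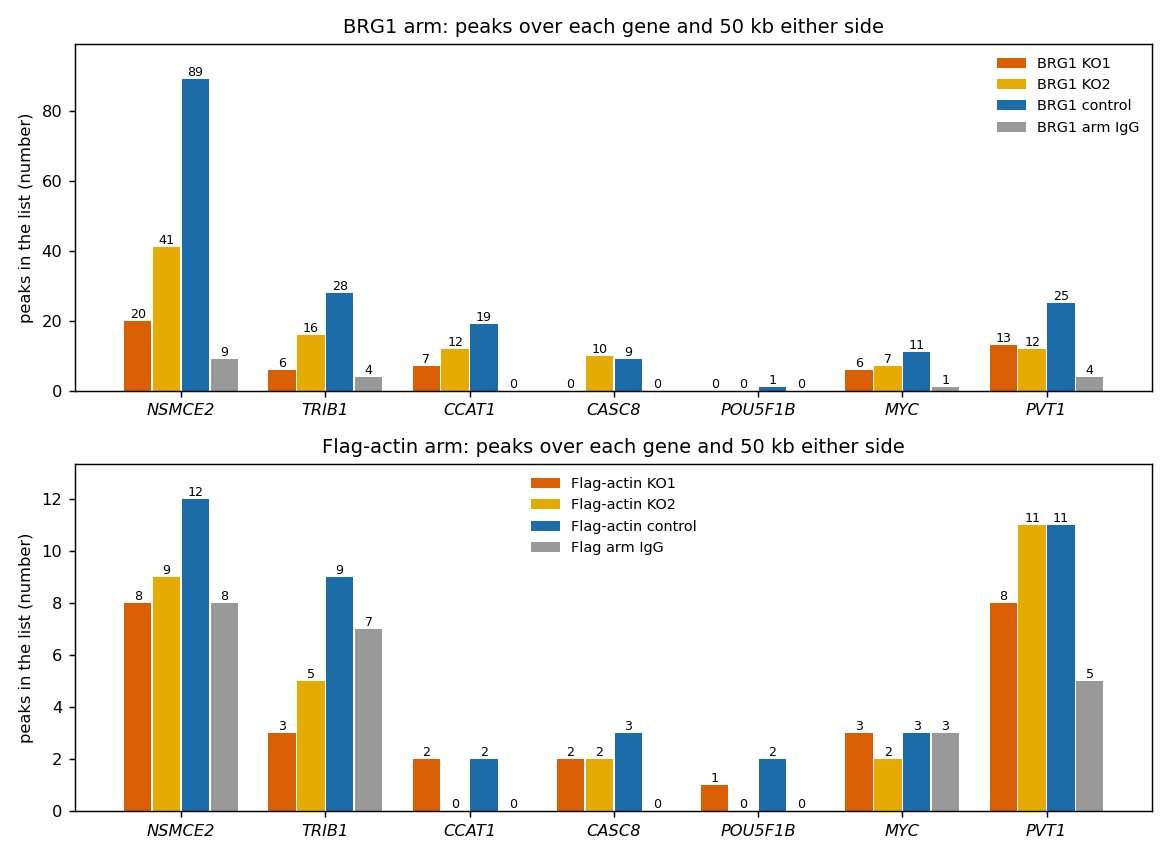
Number of peaks over each gene and 50 kb either side, with the BRG1 arm above and the Flag-actin arm below; each bar is 1 library (KO1, KO2, control and IgG of the arm) and windows of neighbouring genes overlap. BRG1 counts over NSMCE2 are 20, 41, 89 and 9, and the MYC counts of 6, 7, 11 and 1 are several times smaller.

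Gene by gene, 6 of the 7 members had at least 1.5-fold fewer BRG1 peaks in both knockout lists than in the control, where 57.4% of all genes with a peak did. Outside both IgG lists it was again 6 of 7, against 69.8% of all genes. CASC8 was the exception in both counts. No member had at least 1.5-fold more BRG1 peaks in both knockout lists, as 2.63% of all genes did, or 1.82% outside the IgG lists. With 7 genes whose windows partly overlap, these shares give no sign that the members differ from other genes.

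MYC, the transcription factor gene at the centre, spans chr8:127735434-127742951 and is read towards rising coordinates. Its window held 6 BRG1 peaks in KO1 and 7 in KO2, against 11 in control cells and 1 in IgG, a ratio of 0.591 ± 0.0643 (SD, n = 2). The control count was above that of 94.7% of all genes, and at 10.2 peaks per 100 kb of window its density was above that of 97.5%, while the median gene had 3 control peaks. Most of these peaks stood close to the gene: within 5 kb of its span there were 4 peaks in KO1 and 7 in KO2, against 9 in control cells and 1 in IgG. Among peaks outside both IgG lists cut to equal length, the window held 5 in KO1 and 4 in KO2, against 4 in control cells, so the lower count around MYC did not hold under that setting.

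Outside IgG sites, the strongest BRG1 peak near MYC lay just past the 3′ end of the gene, and all 3 BRG1 lists had it. It was called at chr8:127743061-127743270 in KO1, at chr8:127742981-127743340 in KO2 and at chr8:127742961-127743550 in the control. Its percentile was 57.7 in KO1 and 77.3 in KO2, against 87.1 in control cells. Among peaks outside the IgG list of its arm, however, the site was near the top everywhere, at 96.2 in KO1 and 99.8 in KO2, against 99.3 in control cells. Its highest signal was 11 steps in KO1 and 19 in KO2, against 33 in control cells, where a step is the smallest unit of signal in a library. A step was 11.5 in KO1 and 9.09 in KO2, against 4.38 in control cells. As deposited, the highest signal was 127 in KO1 and 173 in KO2, against 145 in control cells. The labels and files do not state how signal was scaled, so neither steps nor deposited values are comparable depths.

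The promoter side of MYC was less even between the lists. A peak about 1 kb before the start was called in every BRG1 list, and in the control it spanned chr8:127734031-127734500. It had percentile 48.1 in KO1 and 64.2 in KO2, against 77.1 in control cells. Its outside percentile was 90.8 in KO1 and 95.8 in KO2, against 93.1 in control cells. The control peak over the start itself, chr8:127734991-127735550 at percentile 80.3, was met by 2 weaker peaks in KO2, at percentiles 12.1 and 45.4, and by none in KO1. Outside percentiles were 23.6 and 79.0 for the KO2 peaks, against 95.4 for the control peak. Counting that control peak, 1 peak in KO1 and 3 in KO2, against 5 in control cells, overlapped the gene body outside both IgG lists. None of the other 4 control peaks overlapped a knockout peak. Further control peaks of the body lay at chr8:127737711-127738130, percentile 40.5, and chr8:127740431-127740600, percentile 10.3. A control peak at chr8:127741451-127741890, percentile 66.4, overlapped the Flag arm IgG list. KO1 and KO2 each had a peak inside the body, at chr8:127735961-127736070 and chr8:127736311-127736520, on either side of the control peak at chr8:127736091-127736250 without touching it. KO2 had a further peak in the body at chr8:127742341-127742430, percentile 32.3, which did not touch the nearest control peak at chr8:127742041-127742160. Outside IgG, the control peaks before, over the start and past the end of MYC were thus found again in at least 1 knockout list, and the 4 lying wholly inside the gene were not. Those 4 were also weaker in the control, at percentiles 46.9, 40.5, 10.3 and 71.9. The peaks found again stood at 77.1, 80.3 and 87.1. Position and strength go together here, and the part of each was not tested.

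A narrow peak within the MYC body was also an IgG site. At chr8:127737581-127737660 the BRG1 control had a peak of percentile 78.7, and the IgG list of that arm had the same site at percentile 70.6. Its percentile was 64.9 in BRG1 KO1 and 83.2 in BRG1 KO2, above the site past the gene end in both. Flag-actin KO1 held it at 56.2 and Flag-actin KO2 at 82.4. It was not in the Flag-actin control list. It counts in the totals above and is left out wherever peaks outside IgG are given.

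**Figure D2:**
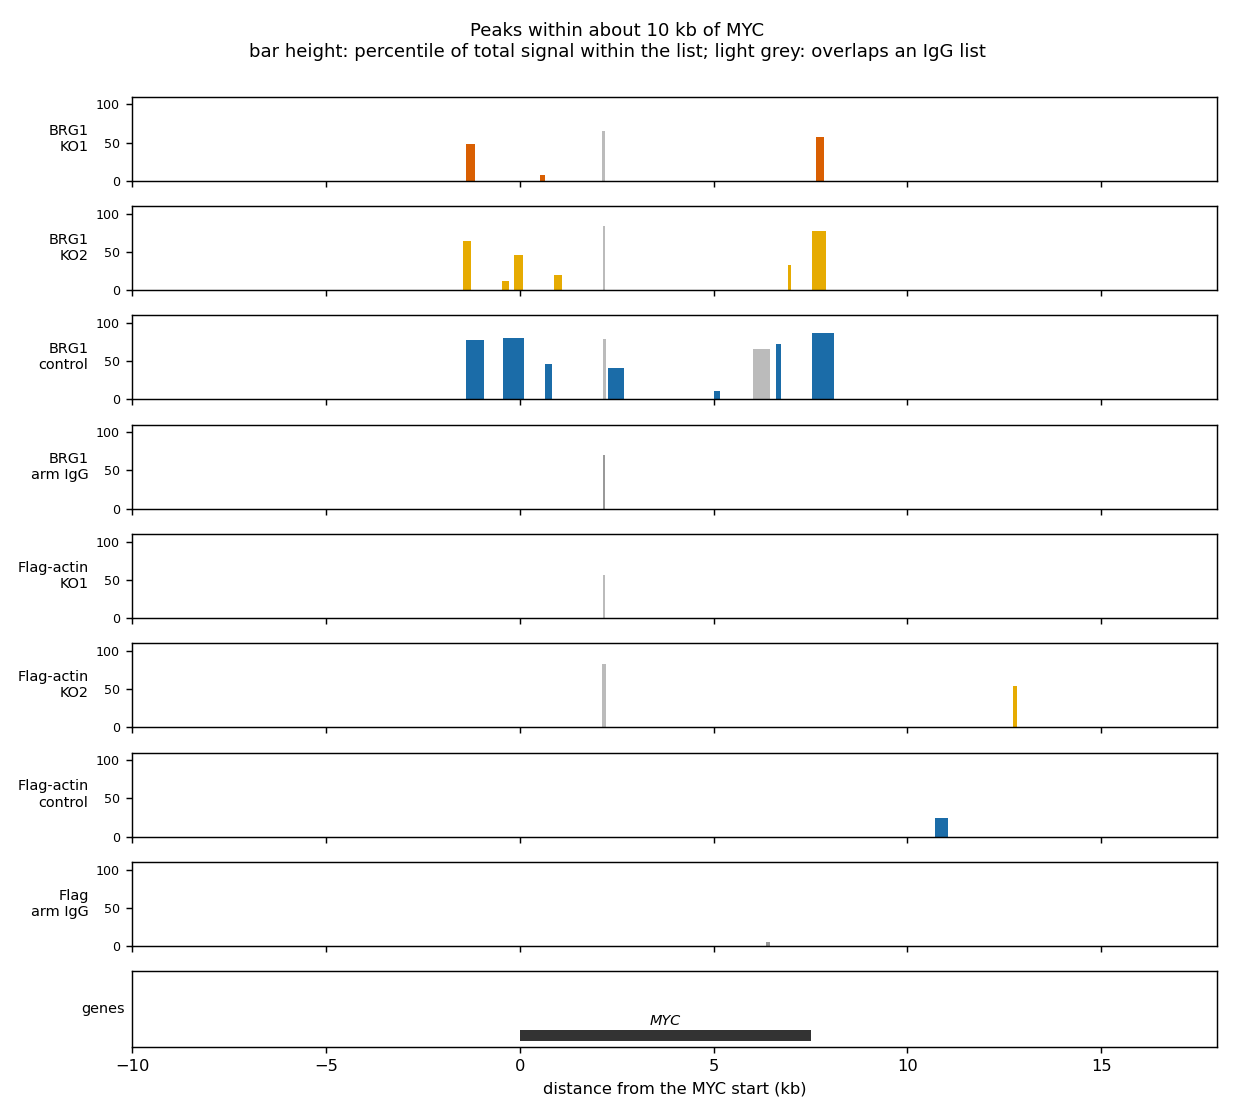
Peaks within and near MYC in the 8 lists, plotted by distance from the MYC start in kb; bar height is the percentile of total signal within each list and light grey bars overlap an IgG list. The site just past the gene end is in all 3 BRG1 lists (57.7 in KO1, 77.3 in KO2 and 87.1 in the control), and the narrow grey peak in the body is also in the BRG1 arm IgG list.

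Between MYC and PVT1 lie about 50 kb with 1 BRG1 peak in KO1 and 1 in KO2, against 2 in control cells and 0 in IgG. The shared one is the site past the end of MYC. The stretch from POU5F1B to MYC, by contrast, held 7 peaks in KO1 and 10 in KO2, against 11 in control cells and 3 in IgG. Besides the promoter peaks of MYC, 1 site there was called in all 3 BRG1 lists outside IgG, at chr8:127668501-127669140 with percentile 2.2 in KO1 and 46.3 in KO2, against 84.9 in control cells. Outside percentiles of that site were 7.3 in KO1 and 80.3 in KO2, against 98.3 in control cells. With lists of equal length the ratio of this stretch turned to 1.62, so its direction depends on how many peaks each list holds.

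PVT1, a long non-coding RNA gene that hosts several microRNAs and is often gained together with MYC, spans chr8:127794524-128101256. Its window held 13 BRG1 peaks in KO1 and 12 in KO2, against 25 in control cells and 4 in IgG, which put the control count above that of 99.7% of genes and its density above that of 90.2%. Inside the gene and outside both IgG lists there were 8 peaks in KO1 and 7 in KO2, against 19 in control cells. Of these 19 control peaks, 4 were met in both knockout lists and 6 in at least one. Where several shorter knockout peaks lie under 1 control peak, the percentile of the strongest is given here and for the genes that follow. The strongest control peak, at chr8:127853861-127854910, had percentile 45.3 in KO1 and 73.3 in KO2, against 89.4 in control cells. The second, at chr8:127809611-127810660, had 26.9 in KO1 and 24.8 in KO2, against 88.1 in control cells. Outside percentiles of the first were 88.2 in KO1 and 99.1 in KO2, against 99.8 in control cells. Those of the second were 62.8 and 48.0, against 99.6. Both control peaks are 1050 bp wide. Under the first, KO1 had 3 shorter peaks and KO2 had 2, and under the second the KO1 peak and the KO2 peak did not overlap each other. With equal numbers of peaks outside IgG, PVT1 had 9 in KO1 and 6 in KO2, against 5 in control cells, so here too the direction turned. The remaining PVT1 sites found in all 3 BRG1 lists outside IgG were weaker in the control. They were chr8:127907941-127908160, at 31.7 in KO1 and 48.9 in KO2, against 72.3 in control cells, and chr8:127911381-127911600, at 45.6 and 2.3, against 63.2. Outside percentiles were 70.4 and 83.1, against 89.4, for the former and 88.6 and 4.9, against 81.0, for the latter.

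The later part of PVT1 also held IgG sites. The BRG1 control peaks at chr8:127957061-127957090, chr8:128010821-128010850 and chr8:128029121-128029170 are at most 50 bp wide, overlap an IgG peak and were also in both BRG1 knockout lists.

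CCAT1, a non-coding RNA gene named for its abundance in colon cancer, had 7 BRG1 peaks in KO1 and 12 in KO2, against 19 in control cells and 0 in IgG. The control count was above that of 99.1% of genes, at 17.0 peaks per 100 kb. None of the CCAT1 peaks fell on an IgG site, and so none is attributed to background here. The strongest control peaks were chr8:127222581-127223760, just beyond the gene, and chr8:127215081-127215700 within it. The first had percentile 48.3 in KO1 and 24.8 in KO2, against 89.4 in control cells. The second had 71.6 in KO1 and 72.6 in KO2, against 88.9 in control cells. Outside percentiles of the first were 91.0 in KO1 and 48.0 in KO2, against 99.8 in control cells. Those of the second were 99.8 and 99.0, against 99.7. Between CCAT1 and CASC8, 3 of 10 control peaks were met in both knockout lists and 6 in at least one, with a peak on a border placed by its centre. Besides chr8:127222581-127223760, these 3 were chr8:127218861-127219680, at 32.9 in KO1 and 37.7 in KO2, against 87.6 in control cells, and chr8:127225001-127225390, at 39.5 and 68.3, against 81.2. Outside percentiles were 72.7 and 69.2, against 99.5, for the former and 81.8 and 97.6, against 96.0, for the latter.

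CASC8, a non-coding RNA gene in which POU5F1B lies, differed between the knockout libraries. KO1 had 0 BRG1 peaks in its window and KO2 had 10, against 9 in the control and 0 in IgG. The ratio of 0.556 ± 0.786 (SD, n = 2) carries no direction, since KO2 alone lies above the control and KO1 alone at 0. The gene itself held 0 peaks in KO1 and 6 in KO2, against 5 in control cells. The strongest control peak, chr8:127294531-127295250 with percentile 85.8, was met in KO2 but not in KO1.

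POU5F1B, a retrogene copy of the pluripotency factor gene POU5F1, was nearly empty. Its window held 0 BRG1 peaks in KO1 and 0 in KO2, against 1 in control cells and 0 in IgG, and 13.9% of all genes had fewer control peaks. No BRG1 list had a peak in the gene itself.

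**Figure D3:**
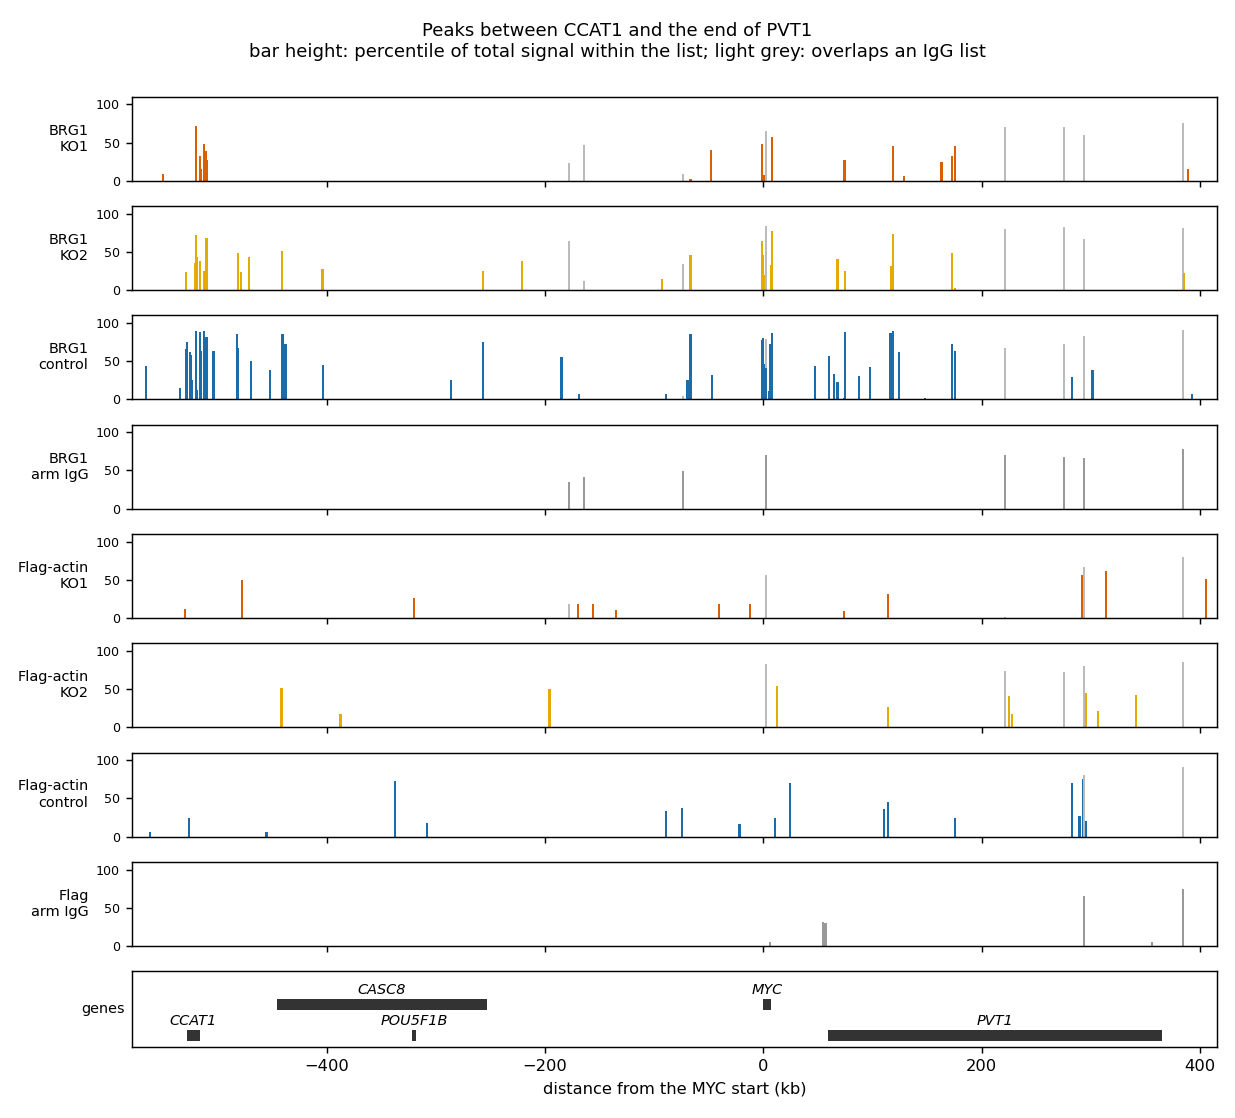
Peaks of the MYC block in the 8 lists by distance from the MYC start in kb, with the genes drawn to scale at the bottom; bar height is the percentile of total signal within each list and light grey bars overlap an IgG list. BRG1 control peaks gather at CCAT1, around MYC and in the first part of PVT1, and the space around POU5F1B is nearly empty.

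NSMCE2, which encodes the SUMO ligase subunit of the SMC5/6 complex that protects damaged DNA, had the largest BRG1 count of the 7 genes in all 3 BRG1 lists. Its window had 20 in KO1 and 41 in KO2, against 89 in control cells and 9 in IgG, a ratio of 0.343 ± 0.167 (SD, n = 2). In the control list 1 gene of the whole annotation had more peaks in its window, PCDH7 with 108, which is named after its value was seen. The count follows the length of the window as well, but the density of 23.7 control peaks per 100 kb was also above that of 99.9% of genes. The peaks lay in the gene body: 12 in KO1 and 29 in KO2, against 72 in control cells, were in the body and outside both IgG lists. Of the 72, 7 were met in both knockout lists and 21 in at least one. The strongest of these was chr8:125218991-125220350, 1360 bp wide, with percentile 74.0 in KO1 and 71.8 in KO2, against 91.8 in control cells. The next, chr8:125273081-125274250, had 63.4 in KO1 and 71.2 in KO2, against 91.1 in control cells. Outside percentiles of the strongest were 99.9 in KO1 and 98.8 in KO2, against 99.98 in control cells. Those of the next were 98.3 and 98.6, against 99.97. The other 5 sites of the body found in both knockout lists had control percentiles of 73.1 to 88.2. The strongest of them was chr8:125334121-125334660, at 26.1 in KO1 and 52.6 in KO2, and the next chr8:125214061-125214570, at 68.1 in KO1 and 48.8 in KO2, against 88.0 in control cells. Outside percentiles were 61.2 and 87.2, against 99.6, for the former and 99.4 and 82.9, against 99.6, for the latter. The other 3 were chr8:125260001-125260340, chr8:125271271-125271690 and chr8:125119191-125119510.

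TRIB1 encodes a pseudokinase that brings C/EBP transcription factors to the ubiquitin ligase COP1. Its window had 6 BRG1 peaks in KO1 and 16 in KO2, against 28 in control cells and 4 in IgG, with a control density of 25.9 per 100 kb, and 99.8% of genes had fewer control peaks. KO1 stood apart from KO2 here. Between NSMCE2 and TRIB1 and outside IgG there were 0 peaks in KO1 and 11 in KO2, against 13 in control cells. The strongest BRG1 peak of KO2 outside IgG in the whole neighbourhood lay there, at chr8:125386261-125386670 with percentile 77.9, over a control peak of percentile 79.6. The outside percentile was 99.8 in KO2, against 94.9 in the control. At the start of TRIB1 the control had the peak chr8:125429261-125430100 with percentile 88.5, which KO2 met with 2 peaks at percentiles 43.4 and 57.7, and KO1 with none. Outside percentiles there were 77.3 and 91.5 in KO2, against 99.7 in the control. The gene itself was overlapped by 0 peaks in KO1 and 1 in KO2, against 4 in control cells, and the KO2 peak, chr8:125430321-125430390, lies across the gene start. Past TRIB1, chr8:125452051-125452550 and chr8:125463351-125463440 were in all 3 BRG1 lists, the first at 47.3 in KO1 and 49.3 in KO2, against 83.8 in control cells. Outside percentiles of that first site were 89.6 in KO1 and 83.7 in KO2, against 97.6 in control cells.

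**Figure D4:**
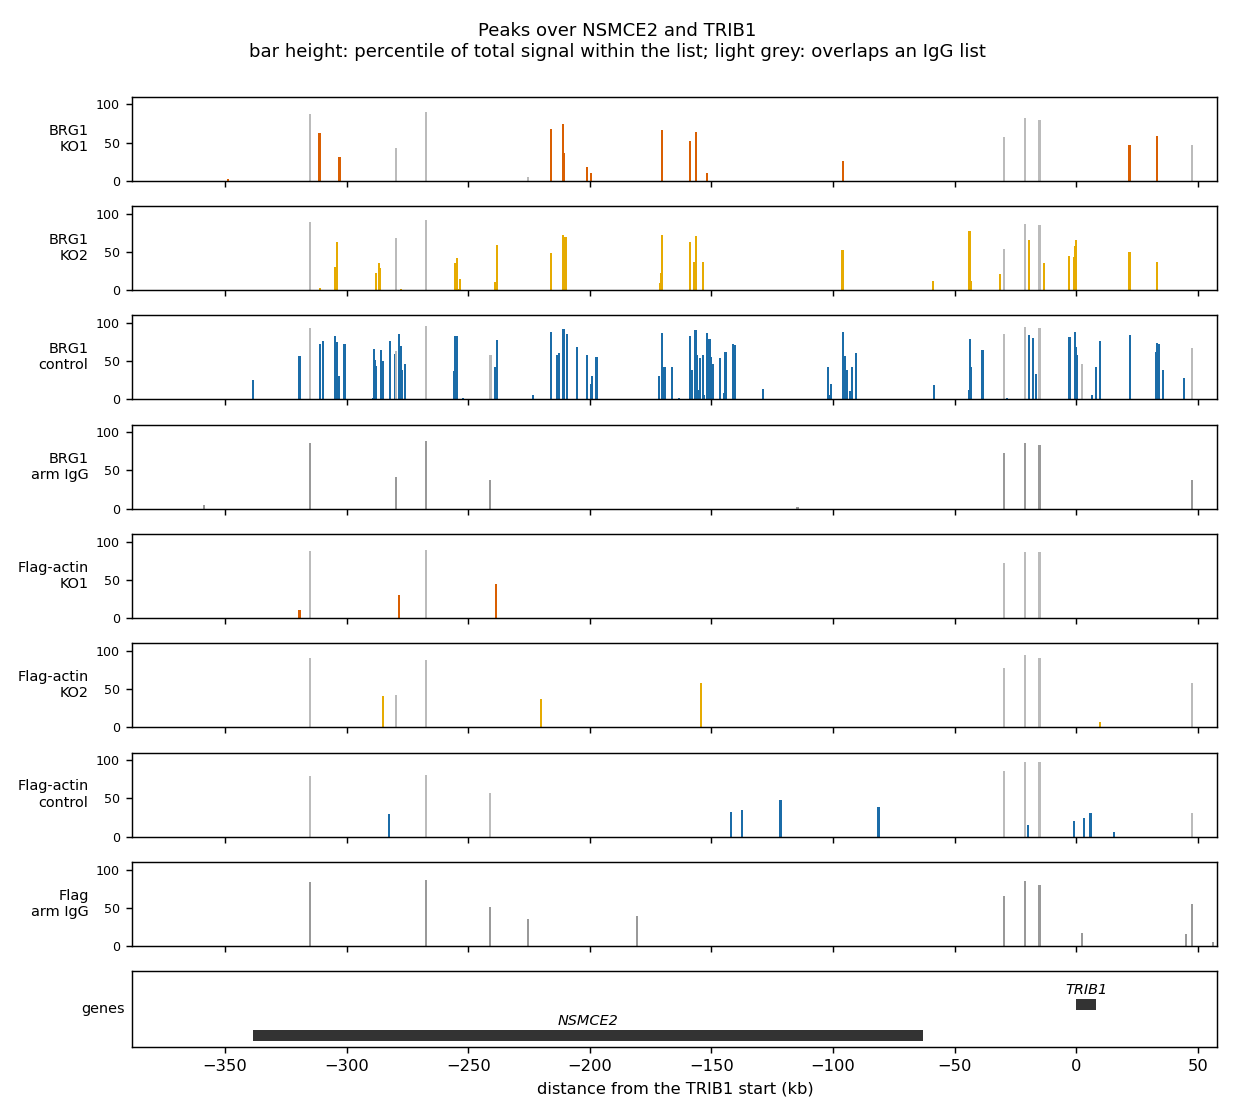
Peaks of the TRIB1 block in the 8 lists by distance from the TRIB1 start in kb; bar height is the percentile of total signal within each list and light grey bars overlap an IgG list. BRG1 control peaks fill the NSMCE2 body, and the stretch before TRIB1 has peaks outside IgG in KO2 and the control but 0 in KO1.

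Which control peaks were found again followed their strength. Of the 155 BRG1 control peaks outside both IgG lists, 20 overlapped a peak in both knockout lists, 5 in KO1 alone and 27 in KO2 alone. The remaining 103, or 66.5%, overlapped none, with an exact Clopper-Pearson 95% interval of 58.4% to 73.8% that covers counting error only, and the share for the whole list was 83.1%. Peaks found in both knockout lists were 12.9% of the 155, against 3.89% of the whole list. Their median percentile was 86.8, that of peaks found in 1 knockout list 75.1, and that of peaks found in none 42.1. Their median widths were 525, 285 and 220 bp. The knockout lists are also shorter than the control list, and the part of list length in this order was not tested. Of the 16 control peaks on IgG sites, 12 were in both knockout lists, or 75%, where the whole list had 72.8%.

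The comparison was repeated for control peaks strong enough to be within reach of the knockout lists. The lowest total signal of a KO1 peak was taken, and 35 control peaks reached 2 times that value. Of these 35, 17 had a KO1 peak, or 48.6% (interval 31.4% to 66.0%), against 39.5% for the whole list. Of 46 such peaks for KO2, 34 had a KO2 peak, or 73.9% (interval 58.9% to 85.7%), against 51.0% for the whole list. Even among these stronger peaks, KO1 thus lacked 18 of 35 and KO2 lacked 12 of 46. This reading takes the signal of different lists as 1 scale, which the sources used here do not state.

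Looked at from the knockout side, most BRG1 peaks stood where the control had one. Outside both IgG lists, 29 of 37 KO1 peaks and 57 of 78 KO2 peaks overlapped a control peak, which is 78.4% and 73.1%. Over the whole lists the shares were 37.0% in KO1 and 37.9% in KO2. The neighbourhood also holds many control peaks, and the part of their density in this was not tested. KO1 and KO2 shared 20 merged sites with the control, and no site was called in KO1 and KO2 without the control, where the whole genome had 490 such sites among 45185 with a BRG1 peak.

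**Figure D5:**
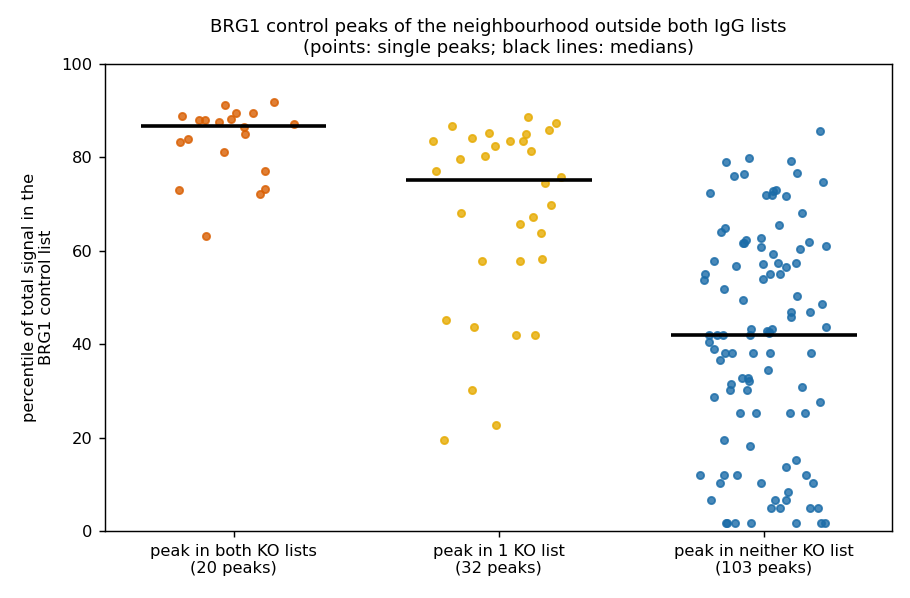
Percentile of total signal, within the BRG1 control list, of the 155 control peaks of the neighbourhood outside both IgG lists, split by whether a peak was called there in both knockout lists (20 peaks), in 1 (32) or in neither (103); points are peaks and lines are medians. The medians are 86.8, 75.1 and 42.1, and weak and strong peaks are both found among those of neither knockout list.

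Flag-actin gave few peaks, and few of them recurred. Over the neighbourhood there were 26 peaks in KO1 and 26 in KO2, against 36 in control cells and 18 in IgG, a ratio of 0.722 beside 0.812 ± 0.157 (SD, n = 2) for the whole lists. Outside both IgG lists there were 16 in KO1 and 14 in KO2, against 27 in control cells. Of those 27 control peaks, 26 overlapped no knockout peak, or 96.3% (interval 81.0% to 99.9%), where the whole list had 93.7%. Of the 16 KO1 peaks, 0 overlapped a control peak and 1 a KO2 peak, and of the 14 KO2 peaks, 1 overlapped a control peak. Of 55 merged sites with a Flag-actin peak outside IgG, 53 were in a single Flag-actin list, or 96.4%, the same share as over the whole genome, and 0 were in all 3, where the whole genome had 0.581%. On IgG sites, 7 of the 9 control peaks were in both knockout lists, where the whole list had 88.4%.

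By gene, Flag-actin peaks over MYC numbered 3 in KO1 and 2 in KO2, against 3 in control cells and 3 in IgG. No count was above that of IgG, though none of these Flag-actin peaks overlapped a Flag arm IgG peak. Outside both IgG lists there were 2 in KO1 and 1 in KO2, against 3 in control cells. PVT1 had 8 in KO1 and 11 in KO2, against 11 in control cells and 5 in IgG. NSMCE2 had 8 and 9, against 12 in the control and 8 in IgG, and TRIB1 had 3 and 5, against 9 in the control and 7 in IgG. CCAT1, CASC8 and POU5F1B had at most 3 in any list and 0 in IgG. The stretch from POU5F1B to MYC had 6 in KO1 and 1 in KO2, against 4 in control cells and 0 in IgG, so KO1 and KO2 fell on either side of the control. At least 1.5-fold fewer Flag-actin peaks in both knockout lists were found for 3 of the 7 members, where 30.5% of all genes with a peak had them, and for 5 of 7 outside IgG, where 39.6% did. No member had 1.5-fold more in both, as 12.8% of all genes did, or 9.7% outside IgG. The counts are small, such as 1 in KO1 and 0 in KO2, against 2 in control cells, for POU5F1B outside IgG. With 7 genes whose windows partly overlap, these shares give no sign that the members differ from other genes.

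The strongest Flag-actin peaks outside both IgG lists lay in different places in each library. In KO1 the strongest was chr8:128049301-128049430 in PVT1 at percentile 61.9, followed by chr8:128027541-128027660 at 56.8. In KO2 it was chr8:125276041-125276150 in the NSMCE2 body at 58.5. The 3 strongest KO2 peaks outside the IgG list of its own arm, at 82.4, 73.3 and 72.3, were the MYC body site and 2 sites of PVT1, all on BRG1 arm IgG peaks. In the control the strongest 3 were chr8:128027931-128028360 in PVT1 at percentile 75.3, chr8:127398011-127398460 in CASC8 at 73.2 and chr8:128018221-128018640 in PVT1 at 70.4. A pair of knockout peaks at chr8:127849791-127849990 in PVT1 was the only site outside IgG found in both Flag-actin knockout lists and not in the control, with percentile 31.4 in KO1 and 27.0 in KO2. Directly before it the control had its own peak at chr8:127849401-127849780, with percentile 45.0. Near MYC the Flag-actin control had the peak chr8:127746141-127746490 at percentile 23.7, past the gene end, and KO2 had chr8:127748161-127748250 at 54.2.

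BRG1 and Flag-actin rarely met. Of 182 merged sites with BRG1 and 55 with Flag-actin outside IgG, 10 held both, which is 5.49% of the BRG1 sites and 18.2% of the Flag-actin sites. Within 1 condition, Flag-actin peaks were compared with the BRG1 list of the same condition label. Whether BRG1 and Flag-actin were mapped in the same cells is left unsaid by the labels. Overlap was found for 1 of 16 Flag-actin peaks in KO1 and 1 of 14 in KO2, against 5 of 27 in the control. The share in the control was 18.5%, where the whole Flag-actin control list had 4.97%. In KO1 it was 6.25%, where the whole list had 1.33%, and in KO2 7.14%, where the whole list had 2.48%. Each of these knockout shares rests on 1 peak. BRG1 peaks are dense here, and whether density alone gives the shares of the neighbourhood was not tested. One of the 5 is the start of TRIB1, where the Flag-actin control had chr8:125429311-125429470 at percentile 20.9 inside the BRG1 control peak.

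Genes with which the members work were read the same way, from lists chosen with earlier results of these data known. Of 12 genes of the MYC family and its partners, 11 had at least 1.5-fold fewer BRG1 peaks in both knockout lists, beside 57.4% of all genes. The genes named are from those with the most control peaks in each list. Choosing genes by a high control count favours lower knockout counts in advance, so the named genes are examples only. MXI1, a MAX partner that opposes MYC, had 6 in KO1 and 2 in KO2, against 13 in control cells, and MNT, another MAX partner, had 0 and 3, against 9. MGA had 3 and 3, against 8, and MLX 1 and 4, against 8. Of 15 regulators of MYC, 9 met the fold in that direction. TCF7L2, the WNT effector at MYC enhancers, had 12 in KO1 and 21 in KO2, against 47 in control cells, and AXIN2, a WNT feedback inhibitor, had 4 and 4, against 10. All 20 targets of MYC did. The median number of BRG1 control peaks was 4.5 for the targets and 6.5 for the partners, against 3 for all genes. Whether larger counts alone give more calls was not tested. NME1, a nucleoside diphosphate kinase gene, had 9 in KO1 and 6 in KO2, against 17 in control cells, CDK4, a cell cycle kinase gene, had 0 and 2, against 8, and SLC7A5, an amino acid transporter gene, had 3 and 2, against 8. Of 6 SMC5/6 genes, 5 of which had a peak, 3 did. EID3 had 3 in KO1 and 2 in KO2, against 8 in control cells, and NSMCE4A had 1 and 2, against 8. NSMCE1, with 2 and 5 against 5, and SMC5, with 4 and 5 against 4, were not lower in both. Both other Tribbles genes did, and of these TRIB3 had 1 in KO1 and 1 in KO2, against 8 in control cells. Of 12 colorectal epithelial markers 9 did and 1 went the other way. KRT8, an epithelial keratin, had 4 in KO1 and 10 in KO2, against 24 in control cells. Of 10 genes of unrelated tissues 5 did, and RBFOX3, a neuronal gene, had 7 in KO1 and 10 in KO2, against 29 in control cells. CD3E had 2 and 3, against 5, and GFAP 0 and 0, against 3. COL1A2, with 3 and 6 against 3, was not lower. For Flag-actin, where 30.5% of all genes were lower and 12.8% higher by that fold, the lower genes were 3 of 12 partners, 5 of 15 regulators, 11 of 20 targets, 0 of 6 SMC5/6 genes, 2 of 2 Tribbles genes, 3 of 12 markers and 5 of 10 unrelated genes. The higher ones were 1 partner, 2 regulators, 1 SMC5/6 gene and 1 unrelated gene.

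Fewer genes were also marked at a gene end in the knockout lists. A BRG1 peak marked a gene when it came within 1 kb of the first or last base of its span. Starts and far ends were counted together, so a marked gene need not have a peak at its promoter. MYC and CCAT1 each had BRG1 peaks at their ends in KO1, in KO2 and in the control. TRIB1 had them in KO2 and the control but not in KO1, and NSMCE2 had one in the control alone. CASC8, POU5F1B and PVT1 had none in any BRG1 list. Among all 38340 genes, 2290 had such a peak in KO1 and 4477 in KO2, against 9627 in control cells and 1523 in IgG. MYC and CCAT1 were therefore among the genes with a marked end in both knockout lists. The share of all genes marked in both is not given here, so this does not set the members apart from other genes. By gene end, 4 MYC targets in KO1 and 3 in KO2 were marked, against 10 of 20 in the control and 3 in IgG, so the knockout counts were at about the IgG level.

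The genes most like MYC in their counts over the 8 libraries were YAP1, DPY19L1, CEBPB, KCTD1 and SERINC5. Likeness was the Euclidean distance between log2(count + 1) values over the 8 libraries, and these 5 lay at 0.834 to 0.944, where the median of 20036 genes was 3.54. The libraries share list length and background sites, so the distance is a description of counts.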

How the data were processed

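Per the submitters' processing notes the build was hg38, reads were handled with tools that include Trim Galore 0.4.5, BWA and bedtools 2.30.0, and the peak callers named are SEACR and MACS2. Apart from the numeric threshold carried by the antibody lists, their order and settings are not stated. The control used in calling is not stated either. The deposited lists give each peak's total and maximum signal, with no statement of how signal was scaled. They were called by the authors per library, in the layout of SEACR. Starts were converted to count from 1, and contigs outside chromosomes 1 to 22, X and Y were left out. Genes came from RefSeq on GRCh38.p14, which gives spans without exons. Overlap meant at least 1 bp. Counts, percentiles within a list, 1.5-fold calls over 38340 genes and exact 95% intervals were computed with Python 3.11.15, numpy 2.4.6, pandas 2.3.3 and scipy 1.17.1, and overlaps were checked on simulated intervals against bedtools 2.31.1. Intervals cover counting error only, and neighbouring peaks are not independent. Members and gene lists were chosen with earlier results of these data known. Peaks named were those within 5 kb of MYC, the 3 strongest of each antibody list outside the IgG list of its arm, and the control peaks outside IgG found in both knockout lists. Some peaks of single members were added after their values were seen. From each gene list up to 4 genes with the most BRG1 control peaks could be named. Likeness to MYC was taken over 8 libraries, and the 5 nearest genes were named. Alternatives changed the flank, the treatment of IgG peaks, list length, peak width and the overlap rule.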

Additional observations from a re-analysis of the deposited data

Results flagged for a closer look

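Of 16 spans compared, 1 had both knockout lists on opposite sides of the control for the 2 antibodies. For peaks that overlap the MYC gene span, IgG sites included, the knockout mean minus control was -4 peaks for BRG1 and 1 peak for Flag-actin. The difference between the antibodies was not tested. The Flag-actin knockout peaks behind the second value lie at chr8:127737581-127737660, which is also in the BRG1 arm IgG list.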

How the results depend on the processing

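No paired analysis was possible because each antibody had 1 control library for 2 knockout libraries. The BRG1 neighbourhood ratio of 0.424 was 0.310 to 0.538 with either knockout library left out, 0.636 with lists of equal length and 0.263 among peaks above the median of each list. It was 0.734 outside both IgG lists at equal length, an alternative chosen after seeing the data. The share of BRG1 control peaks without a knockout peak, 62.0%, was 65.5% to 77.8% with either library left out, 42.4% at equal length, 35.5% outside both IgG lists at equal length and 52.0% when centres within 500 bp counted. The Flag-actin ratio of 0.722 was 0.707 and 0.787 with flanks of 10 and 100 kb, 0.75 over gene spans, 0.685 and 0.556 without peaks of the same or either IgG list, and 0.533 for peaks wider than 50 bp. It turned to 1.09 at equal length, 1.12 above the median and 1.69 outside both IgG lists at equal length, so the Flag-actin direction depends on list length. With either library left out it stayed at 0.722. The Flag-actin share without a knockout peak, 75%, was 75% to 80.6% with either library left out, 96.3% without IgG peaks, 96.7% for wider peaks, 41.7% above the median and 100% outside both IgG lists at equal length.

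Single spans that turned were, for BRG1, the POU5F1B to MYC stretch (1.62 at equal length) and CASC8 (0 to 1.11 with either library left out). Outside both IgG lists at equal length, BRG1 gave 1.12 for MYC and for the POU5F1B to MYC stretch and 1.5 for PVT1. For Flag-actin, MYC was 1.5 with 10 kb flanks and above the median, CASC8 1.12 with 100 kb flanks and TRIB1 1.17 above the median. At equal length CASC8 was 1.5, MYC 2.5, PVT1 1.21 and the POU5F1B to MYC stretch 1.75. That stretch was 0.25 to 1.5 with either library left out. Outside both IgG lists at equal length NSMCE2, CASC8 and MYC were 1.5, PVT1 1.38 and the stretch 3. The cause was not tested. Total and maximum signal ranked the site past the MYC end differently in the knockout lists, at a mean percentile of 67.5 ± 13.8 by total and 27.9 by maximum, against 87.1 and 63.4 in the control.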

Other observations

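Between the TRIB1 and MYC blocks lie 1669 kb in which the BRG1 lists held 24 peaks in KO1 and 40 in KO2, against 90 in control cells and 14 in IgG. They were gathered at the TRIB1 side. LINC02964, a non-coding RNA gene next to TRIB1, at chr8:125519907-125680134, had 13 BRG1 peaks in KO1 and 28 in KO2, against 67 in control cells and 6 in IgG, counted with 50 kb on either side. The 242 kb on the TRIB1 side of the gap held 12 in KO1 and 28 in KO2, against 65 in control cells, while the other 1427 kb held 12 and 12, against 25. Flag-actin peaks of the whole gap numbered 17 in KO1 and 15 in KO2, against 13 in control cells and 16 in IgG, with 5 in KO1 and 6 in KO2, against 5 in control cells, on the TRIB1 side. LINC02964 was added after its values were seen.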
